A study of Mus musculus with 15 samples.

Results

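The genes described here are 34 mouse genes of glycolysis and of the transcription factor HIF-1, followed in pancreatic islets that overproduce islet amyloid polypeptide (IAPP), a peptide that beta cells secrete with insulin. They were chosen by symbol, as the entries of the deposited count table that carry the names of HIF-1 alpha and its oxygen-dependent hydroxylases, of the glucose carrier and enzymes that take glucose to lactate, and of well-known HIF target genes. All 34 symbols were found among the 24060 entries, and all 34 were among the 15460 entries that passed the filter on low counts. The study sequenced total RNA, depleted of ribosomal RNA, from whole islets in 5 groups of 3 libraries, all from mice of the FVB/NJ strain at an age of 9 to 10 weeks. The WT group carried no transgene named in the labels. Human IAPP, which forms amyloid, was driven by the insulin II promoter in the hIAPP group, and the rodent form, which does not aggregate readily, was driven by the same promoter in the rIAPP group. The hCAST group expressed human CAST, which encodes calpastatin, the natural inhibitor of calpain proteases, from the insulin II promoter. The hIAPP:hCAST group expressed human IAPP from that promoter together with human CAST, for which the labels name an insulin promoter. These promoters act in beta cells, whereas every cell of the islet contributed RNA to a library. The labels do not say whether the 3 libraries of a group came from separate animals, so the p-values measure the spread between these libraries. Libraries are numbered 1 to 3 within a group, and a number shared between groups carries no pairing.

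Glycolysis splits glucose into pyruvate, and its pace is set mainly where glucose is phosphorylated and where phosphofructokinase acts, the latter under the control of bifunctional PFKFB enzymes that make and remove its strongest activator. Beta cells send nearly all pyruvate to the mitochondria, and keep lactate dehydrogenase A and the lactate carriers low, so that insulin release follows blood glucose. HIF-1 alpha is made continuously and, with oxygen present, is hydroxylated by the EGLN enzymes and destroyed; in hypoxia it escapes, pairs with HIF-1 beta and activates genes for glucose uptake, glycolysis, lactate formation, mitophagy and collagen hydroxylation.

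Total counts ran from 28287011 to 40191501 per library. The entries Rn45s, Lars2 and Mir6236, here called ribosomal-rich, held 94.3% of them in WT 2, 68.9% in WT 3 and 67.7% in rIAPP 2, and left 1667190, 8796210 and 9510502 other counts against 30199765 to 40062153 in the remaining libraries. Depth therefore limits the WT group most, and each call named below that was lost without these 3 libraries is given with its value; that fit leaves WT with 1 library, which is assumed to vary like the other groups. The islet label was met by the beta cell markers: 12 genes, among them Ins1 and Ins2, took 19.9 to 23.1% of the other counts in WT, 16.4 to 18.4% in hCAST, 11.1 to 13.1% in rIAPP, 13.7 to 15.9% in hIAPP and 12.7 to 16.6% in hIAPP:hCAST. In bulk RNA, fewer cells of a type and less RNA per cell cannot be told apart. The 22 markers of acinar cells, which make digestive enzymes, took 8.13, 4.52 and 1.93% in WT 1, 2 and 3, 5.24, 5.70 and 10.8% in hCAST, 12.1, 16.1 and 12.7% in rIAPP, 8.34, 15.3 and 7.84% in hIAPP and 8.13, 15.8 and 1.27% in hIAPP:hCAST. Of 15 macrophage markers tested, 12 were higher in hIAPP than in WT, whereas 0 were higher and 1 was lower in rIAPP. Hba-a1, Hba-a2, Hbb-bs and Hbb-bt, the haemoglobin genes of red cells, had 0 counts in all libraries. The list of red cell markers also holds Alas2, and its summed share was 0.000170 to 0.000242% of the other counts over the 15 libraries.

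The sequence HIF binds contains the letters ACGTG or GCGTG, and the promoters of the members carried these letters often. Windows of 300 bases, from 250 before to 50 after each start in RefSeq (GRCm38.p6), were matched for 32 of the 34 members, all but Bnip3l and Ero1l. On either strand, 29 of the 32 genes (90.6%) held ACGTG or GCGTG in at least 1 window, against 46.7% of all 27025 genes with a window and 53.3% of those with a window that are in the count table. Counted by window, 39 of 48 (81.2%) held them, against 43.8% of all 32851 windows and 50.3% of the windows of genes in the count table. CACGTG, the palindrome known as an E-box, contains ACGTG on both strands and therefore counts as 2 matches; it lay in 14.6% of the members' windows, 7.15% of all and 8.06% of those of genes in the count table. Member windows were also richer in G and C, with a median of 62.8% against 52.7% in all and 56.7% in genes of the count table. ACGTG and GCGTG each contain CG, and member windows held a median of 20 CG pairs. That median was 7 in all windows and 13 in those of genes in the count table. The part of base composition in these shares was not tested. Gpi1, Tpi1 and Eno2 held no match, and Ldha held the most, 7 in a window. The windows below belong to the 3 members around phosphofructokinase whose RNA changed in a comparison, and to Pkm, the most abundant member that changed; for genes with several starts the window with the most matches is shown. Each runs 5′ to 3′ on the strand of the gene, with matches in capitals.
Pfkfb2, chr1:130715772-130716071, minus strand: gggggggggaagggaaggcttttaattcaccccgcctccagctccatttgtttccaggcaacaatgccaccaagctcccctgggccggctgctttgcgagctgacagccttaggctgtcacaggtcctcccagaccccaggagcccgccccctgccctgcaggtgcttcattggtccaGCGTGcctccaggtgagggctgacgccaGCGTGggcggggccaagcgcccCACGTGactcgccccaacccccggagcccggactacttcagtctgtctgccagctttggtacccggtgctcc
Pfkfb3, chr2:11502041-11502340, minus strand: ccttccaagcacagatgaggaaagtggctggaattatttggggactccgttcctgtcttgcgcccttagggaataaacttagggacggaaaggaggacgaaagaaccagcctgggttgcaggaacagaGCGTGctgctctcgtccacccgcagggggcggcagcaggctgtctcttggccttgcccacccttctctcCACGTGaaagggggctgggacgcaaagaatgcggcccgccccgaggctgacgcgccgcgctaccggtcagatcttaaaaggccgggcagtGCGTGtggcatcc
Pfkp, chr13:6648722-6649021, minus strand: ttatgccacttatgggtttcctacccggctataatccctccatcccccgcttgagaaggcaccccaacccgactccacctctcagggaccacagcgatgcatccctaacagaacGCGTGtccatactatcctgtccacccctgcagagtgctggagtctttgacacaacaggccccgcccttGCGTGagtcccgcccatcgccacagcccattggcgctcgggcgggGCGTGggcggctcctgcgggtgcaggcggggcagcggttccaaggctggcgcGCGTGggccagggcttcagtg
Pkm, chr9:59656977-59657276, plus strand: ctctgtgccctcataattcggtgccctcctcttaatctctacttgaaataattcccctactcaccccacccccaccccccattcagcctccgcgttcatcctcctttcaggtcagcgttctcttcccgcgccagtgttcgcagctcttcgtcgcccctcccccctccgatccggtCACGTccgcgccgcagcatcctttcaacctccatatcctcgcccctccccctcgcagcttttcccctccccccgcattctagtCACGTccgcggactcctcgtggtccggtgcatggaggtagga
Pfkfb2 held GCGTG at 72 and 44 bases before the start and a CACGTG near 22 bases before it, and Pfkfb3 held a CACGTG near 53 bases before its start between GCGTG matches. Pfkp held GCGTG 4 times and no CACGTG, and Pkm held ACGTG only on the strand opposite to the gene. A match describes letters, not a bound site, and no binding was measured.

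The members spanned a wide range of levels. Levels are given here as counts per 1000000 (CPM), after scaling of the libraries by the trimmed mean of M values. Divided by the length of the transcript in kilobases, and as a median over the 15 libraries, Aldoa (aldolase A) stood highest at 194, followed by Pkm (pyruvate kinase) at 163, Tpi1 (triosephosphate isomerase) at 57.6, Gpi1 (glucose phosphate isomerase) at 44.98 and Gapdh at 40.1. Hif1a itself stood at 24.7. On the same per-length scale Ldha was at 6.18, Hk1 at 2.87 and the glucose carrier Slc2a1 at 2.53, and the lowest members were Adm at 0.384, the lactate exporter Slc16a3 at 0.170, Hk2 at 0.148 and Egln3 at 0.0424. Eno1 stood at 0.719 and is uncertain: 76.4% of the 50-base words of the near-identical Eno1b occur in Eno1 transcripts, and Eno1b held 3630 counts against 860 for Eno1, so reads may have been split or dropped between them. The other members were not checked for near-identical copies, and the handling of reads with several matches is not given. Their levels may be affected in the same way.

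Relative to WT, Pfkfb2, Pkm and Ero1l fell and Pfkp rose in islets with human IAPP, and in islets with rodent IAPP Pfkfb2, Aldoc, Eno2, Pkm, Ldhb and Ero1l fell and Pfkfb3, Pfkp and Tpi1 rose. All tests below are edgeR quasi-likelihood tests on the counts with Benjamini-Hochberg adjustment over the 15460 entries, and a gene is said to rise or fall where the adjusted p was below 0.05.  Log2 fold changes carry a standard error (SE) worked back from the test, as the absolute log2 fold change divided by the square root of its F statistic. In hIAPP against WT, 1 member rose and 3 fell, that is 4 of 34 (11.8%), where 11.9% of all tested genes changed, 6.27% up and 5.59% down. In rIAPP against WT, 3 rose and 6 fell, 9 of 34 (26.5%), where 23.3% of all genes changed, 10.7% up and 12.6% down. Between the IAPP forms, 5 members differed, all higher in hIAPP, 5 of 34 (14.7%), where 13% of all genes differed, 7.71% higher and 5.28% lower. Taken over both directions, the shares of members lay near those of all genes in each of the 3 comparisons. Median log2 fold changes of the members were 0.01, -0.05 and 0.04 in that order, beside 0.02, 0.01 and 0.01 for all tested genes. The hIAPP and rIAPP comparisons share the WT libraries, so their values are set side by side and not counted as separate support. In all, 10 members changed in at least 1 comparison and 24 in none. Without the ribosomal-rich libraries the count was 0 in hIAPP and 5 in rIAPP against WT, where 2.39% and 9.53% of all genes tested in that fit were called, and the count in hIAPP was 2 without WT 3 and 2 without hIAPP 2.

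**Figure D1:**
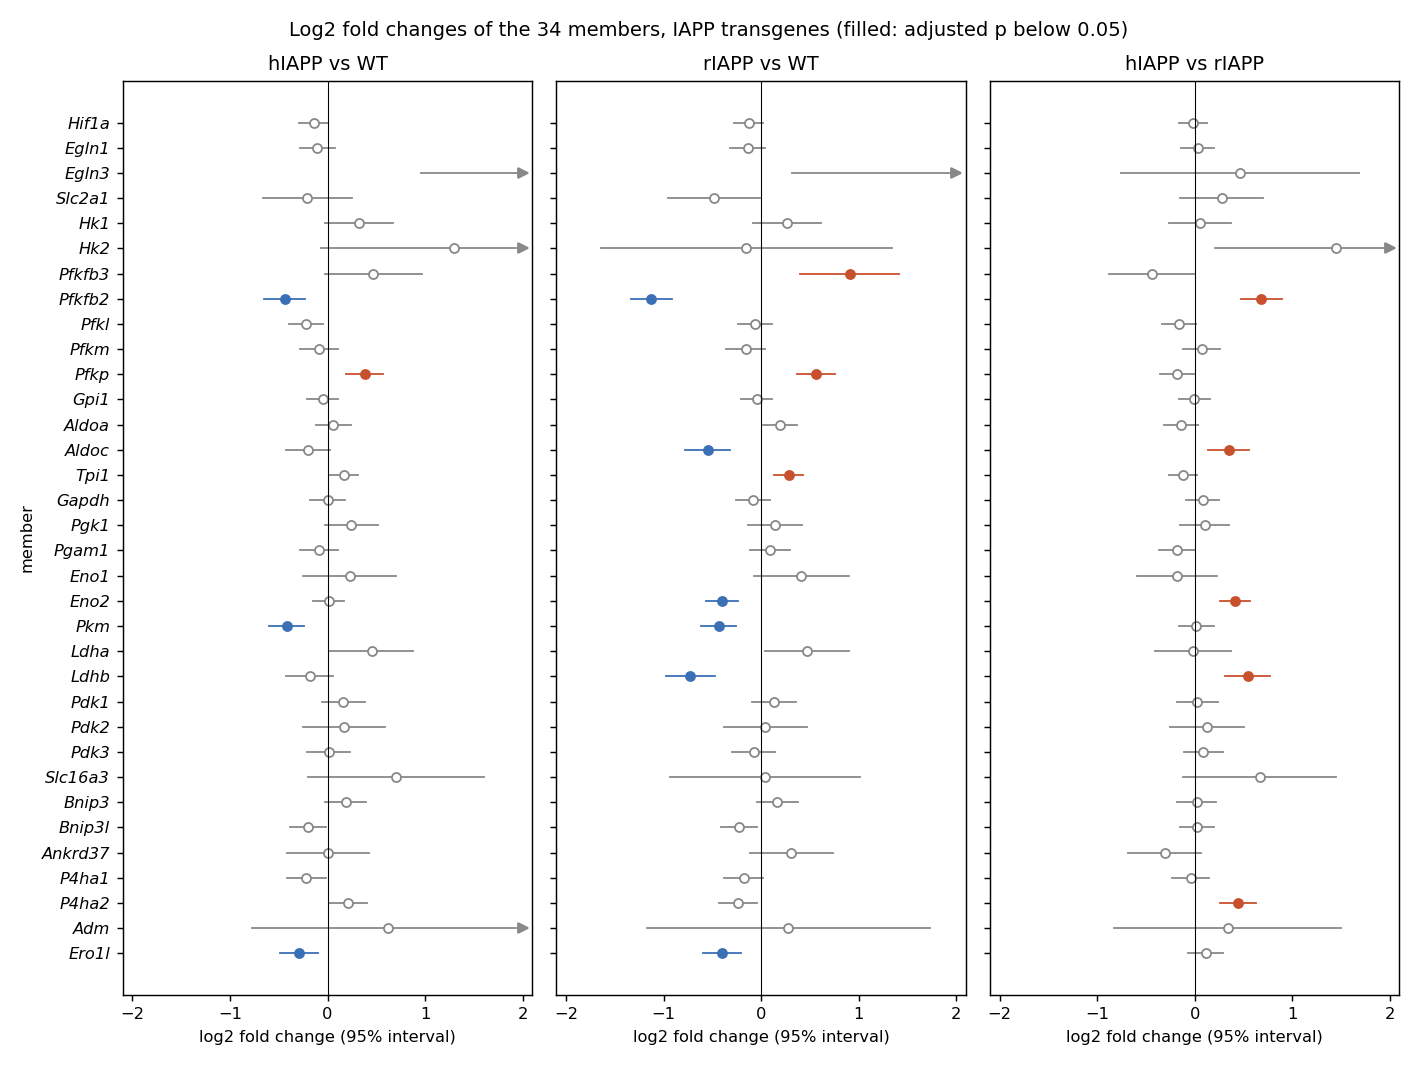
Log2 fold changes (horizontal axis) with 95% intervals for the 34 members (vertical axis) in hIAPP against WT, rIAPP against WT and hIAPP against rIAPP, filled where the adjusted p was below 0.05. Pfkfb2 is the farthest left in rIAPP against WT at -1.12, and Egln3, which rests on 88 counts in all, lies beyond the axis in the comparisons with WT and is marked by an arrow.

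Hif1a RNA, which encodes the regulated subunit of HIF-1, changed in no comparison. Over the 15 libraries it ranged from 109 to 139.7 CPM. WT libraries averaged 126 ± 11.9 CPM (SD, n = 3), hIAPP libraries 113 ± 5.31 CPM and rIAPP libraries 114 ± 4.70 CPM. The log2 fold change was -0.14 in hIAPP against WT (95% interval -0.29 to 0.00) and -0.13 in rIAPP against WT (95% interval -0.28 to 0.02). All rIAPP libraries were below all WT libraries, and the hIAPP libraries overlapped WT. The protein is controlled mainly by degradation, which RNA does not show. Egln1, the main prolyl hydroxylase that marks HIF-1 alpha for destruction, ranged from 32.4 to 45.5 CPM and changed in no comparison. Egln3, a hydroxylase that is itself a HIF target, had 1 count in the 3 WT libraries together, 11 in hCAST, 14 in rIAPP, 26 in hIAPP and 36 in hIAPP:hCAST. No difference in Egln3 passed the test (adjusted p = 0.0590 for hIAPP against WT), and in WT 2, where 3 counts equal 1.31 CPM, such a level was not detectable.

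The members for glucose uptake and phosphorylation, Slc2a1, Hk1 and Hk2, passed the test in no comparison. Carriers and hexokinases outside the members, among them Slc2a2, are described further below. Slc2a1, the glucose carrier that HIF-1 induces in many cells, ranged from 4.21 to 9.63 CPM, and its log2 fold change was -0.21 ± 0.216 (SE) in hIAPP and -0.48 ± 0.222 in rIAPP against WT. Hk1 had 11.3, 12.3 and 12.7 CPM in WT 1, 2 and 3, against 14.3, 16.2 and 14.4 CPM in the hIAPP libraries and 14.8, 15.02 and 13.5 CPM in the rIAPP libraries. The hIAPP and rIAPP libraries all lay above WT for Hk1, with adjusted p of 0.212 and 0.266. Hk2, the hexokinase that HIF-1 induces and that normal beta cells keep low, had 0.903, 0 and 0.694 CPM in WT 1, 2 and 3, 0.760, 0.567 and 1.12 in hCAST, against 0.474, 1.26 and 0.625 CPM with rodent IAPP, 2.53, 2.35 and 0.814 CPM in hIAPP and 1.06, 2.15 and 0.467 in hIAPP:hCAST. hIAPP 1 and 2 were the highest of all libraries for Hk2, while hIAPP 3 lay among the others, and no difference passed the test (adjusted p = 0.203 against WT and 0.130 against rIAPP). Against rIAPP it passed with voom (1.67, adjusted p = 0.0137) and without hIAPP 3 (1.82, adjusted p = 0.0422), and with the summed share of acinar markers as a covariate (1.69 ± 0.396, adjusted p = 0.00592).

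The phosphofructokinase step held the largest changes that passed the test, in opposite directions for the PFKFB enzymes. Pfkfb2, the bifunctional enzyme that is abundant in beta cells, had 173, 159 and 171 CPM in WT 1, 2 and 3, against 163, 161 and 151 in hCAST 1, 2 and 3. Pfkfb2 stood at 75.3, 68.2 and 87.6 CPM in rIAPP 1, 2 and 3, at 137, 113 and 123 in hIAPP 1, 2 and 3, and at 163, 132 and 157 in hIAPP:hCAST 1, 2 and 3. The rIAPP libraries lay lowest, the hIAPP libraries lay between rIAPP and WT without overlapping either, and the hIAPP:hCAST libraries reached from the hIAPP into the hCAST range. The beta cell marker share, which includes Iapp, was 19.9 to 23.1% in WT and 16.4 to 18.4% in hCAST. It was 11.1 to 13.1% in rIAPP, 13.7 to 15.9% in hIAPP and 12.7 to 16.6% in hIAPP:hCAST. How much of the falls of Pfkfb2 and other members goes with beta cell content was not tested. The log2 fold change of Pfkfb2 was -1.12 ± 0.1002 (SE, adjusted p = 6.79e-07) in rIAPP against WT, -0.44 ± 0.0986 (adjusted p = 0.00969) in hIAPP against WT and 0.68 ± 0.0977 (adjusted p = 0.000131) in hIAPP against rIAPP. Only the fall in hIAPP depended on single libraries among these 3: it missed the threshold without hIAPP 2 (-0.38, adjusted p = 0.0526) and when the ribosomal-rich libraries were left out (-0.49, adjusted p = 0.0740).

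Pfkfb3, the paralog with the highest kinase to phosphatase ratio and a HIF target, had 5.10, 8.32 and 5.17 CPM in WT 1, 2 and 3, against 6.14, 4.98 and 7.19 in hCAST 1, 2 and 3. Pfkfb3 stood at 9.32, 13.02 and 9.20 CPM in rIAPP 1, 2 and 3, at 7.42, 7.09 and 8.30 in hIAPP 1, 2 and 3, and at 6.70, 10.03 and 5.64 in hIAPP:hCAST 1, 2 and 3. All rIAPP libraries were above all WT and hCAST libraries, with rIAPP 2 highest, while the hIAPP libraries lay within the WT range. Pfkfb3 rose in rIAPP by 0.91 ± 0.238 on the log2 scale (adjusted p = 0.0115), and the difference in hIAPP was 0.47 (95% interval -0.03 to 0.97, adjusted p = 0.210). The rise missed the threshold without WT 1 (0.81, adjusted p = 0.0938), without WT 3 (0.86, adjusted p = 0.0557) and when the ribosomal-rich libraries were left out (0.85, adjusted p = 0.110). Against the hCAST libraries in place of WT it was 0.76 (adjusted p = 0.0143).

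Pfkp, the platelet-type phosphofructokinase, had 19.6, 20.6 and 17.3 CPM in WT 1, 2 and 3, against 18.2, 17.5 and 20.9 in hCAST 1, 2 and 3. Pfkp stood at 29.4, 26.9 and 27.2 CPM in rIAPP 1, 2 and 3, at 24.6, 24.5 and 24.7 in hIAPP 1, 2 and 3, and at 22.2, 24.8 and 24.9 in hIAPP:hCAST 1, 2 and 3. Every rIAPP, hIAPP and hIAPP:hCAST library was above every WT and hCAST library. The rise was 0.56 ± 0.0924 (SE, adjusted p = 0.000312) in rIAPP and 0.38 ± 0.0915 (adjusted p = 0.0146) in hIAPP. The rise in hIAPP missed the threshold without WT 3 (0.31, adjusted p = 0.0891) and when the ribosomal-rich libraries were left out (0.32, adjusted p = 0.172). The liver form Pfkl ranged from 42.03 to 56.8 CPM and the muscle form Pfkm from 41.2 to 58.1, each lowest in WT 2, and neither changed in any comparison. Under alternatives, Pfkl passed as lower in hIAPP against WT with DESeq2 (-0.25, adjusted p = 0.0370), with voom (-0.27, adjusted p = 0.0204) and without WT 2 (-0.30, adjusted p = 0.0109). With voom it also passed against rIAPP (-0.16, adjusted p = 0.0486). Pfkm passed as lower in rIAPP against WT without WT 2 (-0.23, adjusted p = 0.0350).

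**Figure D2:**
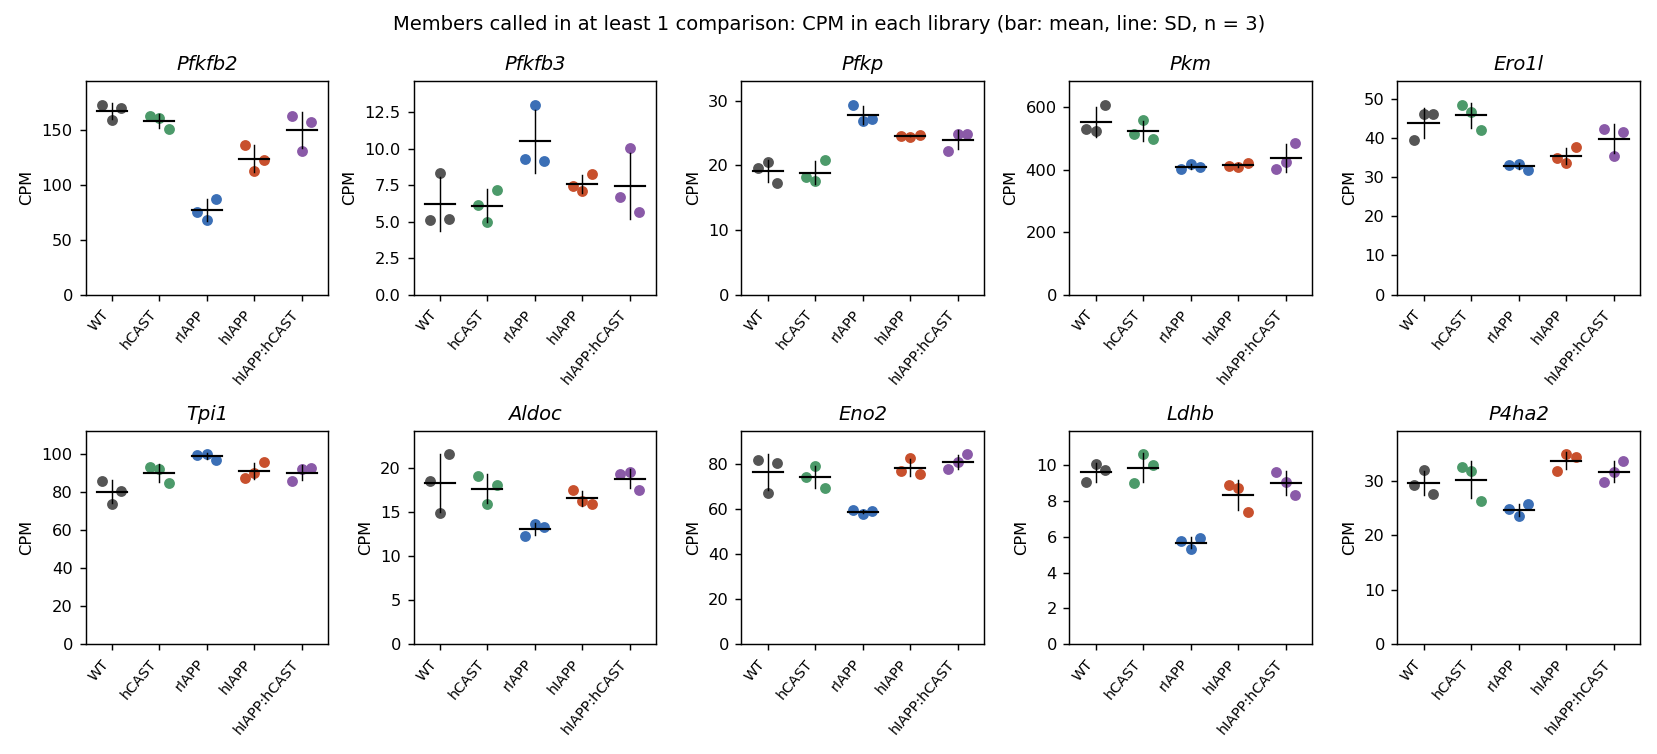
CPM (vertical axis, from 0) of the 10 members that changed in at least 1 comparison, by group (horizontal axis), with a point per library, a bar at the mean and a line for the SD (n = 3). Pfkfb2 is lowest in rIAPP at 77.03 ± 9.82 CPM and intermediate in hIAPP at 124 ± 12.1, against 168 ± 7.42 in WT.

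Among the remaining enzymes from glucose 6-phosphate to pyruvate, Pkm fell in both IAPP groups. Pkm, which makes pyruvate and ATP in the last step, had 528, 523 and 607 CPM in WT 1, 2 and 3, against 515, 557 and 496 in hCAST 1, 2 and 3. Pkm stood at 401, 416 and 409 CPM in rIAPP 1, 2 and 3, at 411, 409.6 and 421 in hIAPP 1, 2 and 3, and at 401, 423 and 486 in hIAPP:hCAST 1, 2 and 3. All rIAPP and hIAPP libraries were below all WT and hCAST libraries, and the rIAPP and hIAPP ranges overlapped. The log2 fold change was -0.44 ± 0.0853 (SE, adjusted p = 0.00133) in rIAPP and -0.42 ± 0.0852 (adjusted p = 0.00541) in hIAPP, and it missed the threshold without the ribosomal-rich libraries in both (-0.39, adjusted p = 0.0567 and -0.36, adjusted p = 0.106). The table counts the gene as a whole, so its M1 and M2 splice forms were not told apart.

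Eno2, the enolase of neurons and endocrine cells, had 81.8, 67.4 and 80.7 CPM in WT 1, 2 and 3, against 74.5, 79.4 and 69.6 in hCAST 1, 2 and 3. Eno2 stood at 59.7, 58.1 and 59.3 CPM in rIAPP 1, 2 and 3, at 77.3, 82.8 and 75.7 in hIAPP 1, 2 and 3, and at 77.8, 80.9 and 84.4 in hIAPP:hCAST 1, 2 and 3. The rIAPP libraries stood below all others, and the remaining groups overlapped. Eno2 fell in rIAPP by 0.40 ± 0.0765 on the log2 scale (adjusted p = 0.00113), and was higher in hIAPP than in rIAPP by 0.41 ± 0.0736 (adjusted p = 0.000973). Aldoc, aldolase C, which is typical of neural tissue, had 18.5, 14.9 and 21.5 CPM in WT 1, 2 and 3, against 19.1, 15.9 and 18.00 in hCAST 1, 2 and 3. Aldoc stood at 12.3, 13.6 and 13.2 CPM in rIAPP 1, 2 and 3, at 17.5, 16.2 and 15.9 in hIAPP 1, 2 and 3, and at 19.3, 19.5 and 17.5 in hIAPP:hCAST 1, 2 and 3. The rIAPP libraries were again the lowest of all. Aldoc fell in rIAPP by 0.55 ± 0.110 (adjusted p = 0.00161) and was 0.35 ± 0.102 higher in hIAPP than in rIAPP (adjusted p = 0.0311). That last difference missed the threshold in 5 of 6 fits that left out 1 library, all but the one without hIAPP 3, with adjusted p up to 0.143 without rIAPP 1.

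Tpi1, which interconverts the triose phosphates, had 86.1, 73.99 and 80.8 CPM in WT 1, 2 and 3, against 93.2, 92.3 and 84.8 in hCAST 1, 2 and 3. Tpi1 stood at 99.6, 99.9 and 97.1 CPM in rIAPP 1, 2 and 3, at 87.7, 89.9 and 95.8 in hIAPP 1, 2 and 3, and at 85.7, 92.2 and 92.9 in hIAPP:hCAST 1, 2 and 3. The rIAPP libraries were the highest of all, and the hCAST libraries overlapped the top of the WT range. Tpi1 rose in rIAPP by 0.28 ± 0.0696 (SE, adjusted p = 0.00708), but the difference was 0.13, adjusted p = 0.171 against hCAST in place of WT, and 0.18, adjusted p = 0.246 without the ribosomal-rich libraries. The other 6 of these 10 enzymes, Gpi1, Aldoa, Gapdh, Pgk1, Pgam1 and Eno1, changed in no comparison. In rIAPP against WT their log2 fold changes ran from -0.08 (Gapdh) to 0.41 (Eno1), and in hIAPP against WT from -0.09 (Pgam1) to 0.24 (Pgk1). Gapdh, often used as a reference gene, ranged from 49.9 to 66.97 CPM over the 15 libraries.

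Among the genes that set the fate of pyruvate, only Ldhb passed a test. Ldhb, the lactate dehydrogenase subunit of oxidative tissues, had 9.03, 10.1 and 9.72 CPM in WT 1, 2 and 3, against 9.01, 10.6 and 9.99 in hCAST 1, 2 and 3. Ldhb stood at 5.76, 5.33 and 5.92 CPM in rIAPP 1, 2 and 3, at 8.88, 8.70 and 7.36 in hIAPP 1, 2 and 3, and at 9.62, 9.08 and 8.32 in hIAPP:hCAST 1, 2 and 3. The rIAPP libraries were the lowest of all for Ldhb. The hIAPP libraries lay below WT 1, the lowest WT library, with hIAPP 3 the farthest below it. The log2 fold change was -0.73 ± 0.120 (SE, adjusted p = 0.000315) in rIAPP against WT, -0.18 ± 0.115 (adjusted p = 0.323) in hIAPP against WT and 0.54 ± 0.109 (adjusted p = 0.00251) in hIAPP against rIAPP.

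Ldha, the subunit that favours lactate formation and a classic HIF target, had 9.74, 8.76 and 11.03 CPM in WT 1, 2 and 3, against 9.45, 9.84 and 10.8 in hCAST 1, 2 and 3. Ldha stood at 14.6, 14.5 and 12.9 CPM in rIAPP 1, 2 and 3, at 13.4, 14.2 and 13.8 in hIAPP 1, 2 and 3, and at 11.9, 16.5 and 7.80 in hIAPP:hCAST 1, 2 and 3. All rIAPP and hIAPP libraries were above all WT libraries, but the hIAPP:hCAST libraries spanned from the lowest to the highest value in the table. The log2 fold change was 0.47 ± 0.204 (SE, adjusted p = 0.110) in rIAPP and 0.45 ± 0.201 (adjusted p = 0.156) in hIAPP, which did not pass the test. Fitted on only the 2 groups compared, both differences passed (rIAPP 0.47, adjusted p = 0.0117, hIAPP 0.45, adjusted p = 0.0277). The pyruvate dehydrogenase kinases, which keep pyruvate out of the citric acid cycle, ranged from 27.6 to 38.5 CPM for Pdk1, 7.48 to 15.3 for Pdk2 and 10.9 to 13.7 for Pdk3, and changed in no comparison. Slc16a3, the lactate exporter that HIF-1 induces, ranged from 0.154 to 0.883 CPM with 330 counts in all and changed in no comparison.

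The acinar share moved with several of these values, and the genes that follow were picked after their values were seen. In hIAPP:hCAST 1, 2 and 3, where acinar markers took 8.13, 15.8 and 1.27% of the other counts, Ldha had 11.9, 16.5 and 7.80 CPM, Hk1 12.95, 16.5 and 9.33 CPM and Pfkfb3 6.70, 10.03 and 5.64 CPM, so that all 3 genes were highest in the library with the most acinar RNA and lowest in that with the least. That order was not met in every group: in WT, Ldha and Hk1 were highest in WT 3, the library with the least acinar RNA, and in hIAPP, Pfkfb3 was lowest in hIAPP 2, the library with the most. With log2 of the acinar share as a covariate, the log2 fold change of Ldha in rIAPP against WT was 0.15 ± 0.161, adjusted p = 0.560, and in hIAPP against WT 0.22 ± 0.150, adjusted p = 0.390. Hk1 was at 0.01 ± 0.139, adjusted p = 0.965 in rIAPP with that covariate, and Pfkfb3 at 0.66 ± 0.220, adjusted p = 0.0394. With 1 coefficient per group, the slope of this covariate rests on the spread within groups. Acinar shares did not overlap between WT (1.93 to 8.13%) and rIAPP (12.1 to 16.1%). Adjusted values for rIAPP against WT therefore reach past any share that both groups had, and do not separate acinar content from group. With that limit, all 9 changes in rIAPP against WT kept their direction and passed the threshold with the covariate, Pfkfb2 at -1.04 ± 0.107, adjusted p = 1.91e-06 and Pfkp at 0.54 ± 0.105, adjusted p = 0.00111. In the same fit 5 more members passed in rIAPP against WT, namely Slc2a1 (-0.73 ± 0.212, adjusted p = 0.0190), Ankrd37 (0.60 ± 0.166, adjusted p = 0.0143), Bnip3l (-0.35 ± 0.0846, adjusted p = 0.00538), Aldoa (0.26 ± 0.0896, adjusted p = 0.0439) and P4ha1 (-0.28 ± 0.0986, adjusted p = 0.0496), which makes 14 of 34 (41.2%) where 21.8% of all genes were called. In hIAPP against WT, Bnip3l (-0.30 ± 0.0787, adjusted p = 0.0227) and P4ha1 (-0.29 ± 0.0918, adjusted p = 0.0478) passed with the covariate, and in hIAPP against rIAPP Ankrd37 did (-0.39 ± 0.131, adjusted p = 0.0447) besides Hk2. Acinar markers themselves were not called higher in hIAPP (0 of 22, median log2 fold change 1.07) and 1 of 22 was in rIAPP (median 1.41).

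**Figure D3:**
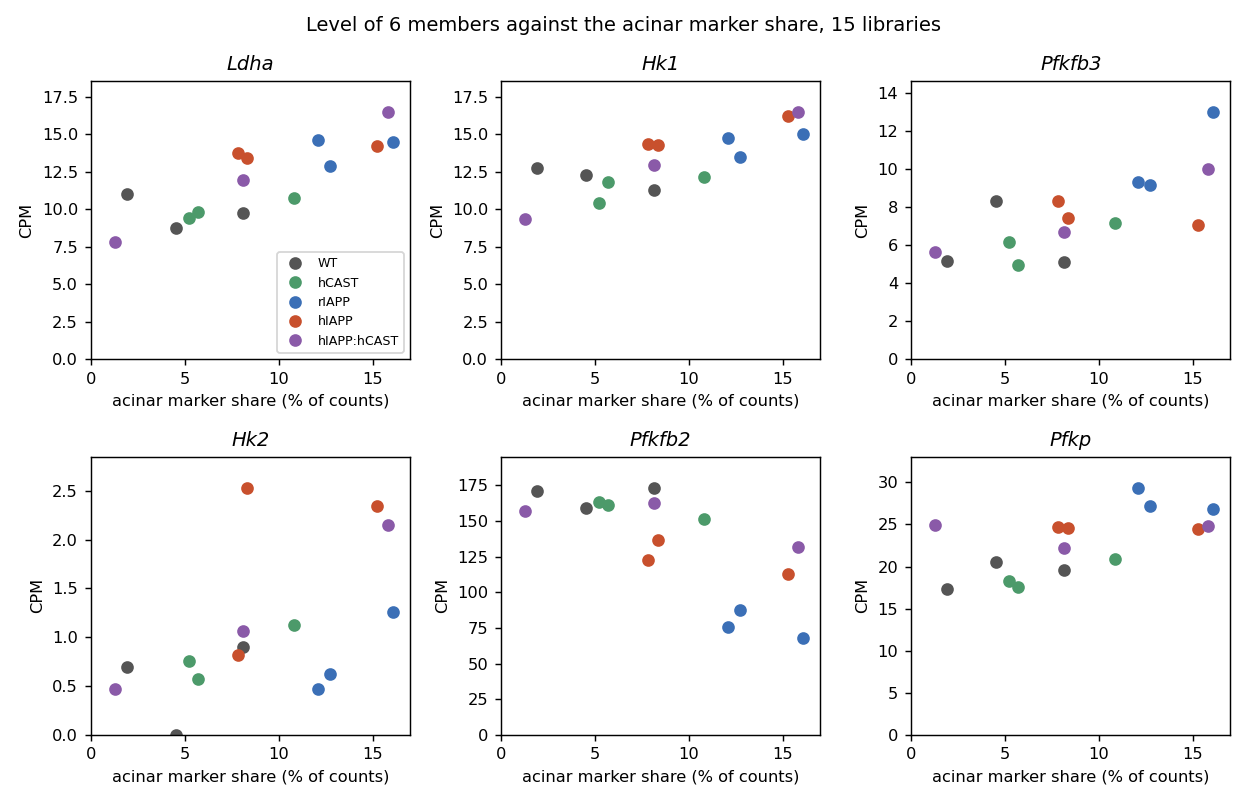
CPM of members (vertical axis, from 0) against the summed acinar marker share in percent of counts outside the ribosomal-rich entries (horizontal axis), with a point per library coloured by group. Ldha in hIAPP:hCAST runs from 7.80 CPM at a share of 1.27% to 16.5 CPM at 15.8%, and Pfkfb2 is lowest in the rIAPP libraries.

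The other HIF targets and the mitophagy receptors showed 1 gene with a fall and 1 with a difference between the IAPP forms. Ero1l (Ero1a in RefSeq), the HIF-inducible oxidase that forms disulfide bonds in the endoplasmic reticulum, had 39.4, 45.97 and 46.1 CPM in WT 1, 2 and 3, against 48.5, 46.6 and 42.1 in hCAST 1, 2 and 3. Ero1l stood at 33.1, 33.3 and 31.8 CPM in rIAPP 1, 2 and 3, at 34.8, 33.5 and 37.7 in hIAPP 1, 2 and 3, and at 42.4, 35.5 and 41.5 in hIAPP:hCAST 1, 2 and 3. All rIAPP and hIAPP libraries were below all WT and hCAST libraries. The fall was -0.40 ± 0.0917 (SE, adjusted p = 0.00416) in rIAPP, which was -0.29, adjusted p = 0.174 without the ribosomal-rich libraries. In hIAPP it was -0.29 ± 0.0906 (adjusted p = 0.0462), and this call was lost in 5 of 6 fits that left out 1 library, all but the one without WT 1, with adjusted p from 0.0547 without hIAPP 3 to 0.194 without WT 3. It was also lost with the acinar covariate (-0.20, adjusted p = 0.143) and when the ribosomal-rich libraries were left out (-0.16, adjusted p = 0.496).

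P4ha2, a collagen prolyl hydroxylase subunit, had 29.2, 31.96 and 27.5 CPM in WT 1, 2 and 3, against 32.6, 31.8 and 26.3 in hCAST 1, 2 and 3. P4ha2 stood at 24.8, 23.5 and 25.7 CPM in rIAPP 1, 2 and 3, at 31.9, 34.8 and 34.4 in hIAPP 1, 2 and 3, and at 29.8, 31.6 and 33.6 in hIAPP:hCAST 1, 2 and 3. The rIAPP libraries were the lowest of all, and the WT range reached up to the lowest hIAPP library. P4ha2 was higher in hIAPP than in rIAPP by 0.45 ± 0.0872 (SE, adjusted p = 0.00193), while neither form differed from WT past the threshold (0.21, adjusted p = 0.145 in hIAPP and -0.24, adjusted p = 0.0801 in rIAPP). Against hCAST in place of WT, P4ha2 passed in rIAPP (-0.29, adjusted p = 0.0236) and not in hIAPP (0.16, adjusted p = 0.308). Its partner P4ha1 ranged from 56.6 to 78.01 CPM and changed in no comparison. Bnip3 and Bnip3l, receptors through which mitochondria are taken up for degradation, ranged from 49.9 to 77.3 and 41.98 to 55.6 CPM, with log2 fold changes in rIAPP of 0.16 ± 0.0995 and -0.23 ± 0.0885, and did not pass the test. Ankrd37 ranged from 3.60 to 5.997 CPM and the peptide hormone gene Adm from 0 to 1.37 CPM, the latter with 391 counts in all, and neither changed.

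Human CAST was tested alone, on top of human IAPP and for its interaction with it, and no member passed in any of these comparisons. In hCAST against WT 0 of 34 members were called where 0.0194% of all genes were, and 1 member, Tpi1, was below an unadjusted p of 0.05, where 7.33% of all genes were. In hIAPP:hCAST against hIAPP 0 members were called where 0.466% of all genes were, and 2 were below an unadjusted 0.05, where 11.3% of all genes were. In hIAPP:hCAST against hCAST 0 were called where 0.75% of all genes were, and 5 were below an unadjusted 0.05, where 9.48% of all genes were. For the interaction 0 were called among the members and 0% of all genes, with 1 member below an unadjusted 0.05, where 8.71% of all genes were. DESeq2 and limma voom also called 0 members in hCAST against WT, in hIAPP:hCAST against hIAPP and in the interaction, and in hIAPP:hCAST against hCAST they called 1 and 2, where 1.77% and 1.95% of all genes were called. These counts do not show that CAST left the genes unchanged, and the intervals give only approximate bounds on what could have been missed.

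Pfkfb2 came closest when CAST was added to human IAPP. In hIAPP:hCAST against hIAPP its log2 fold change was 0.28 (95% interval 0.07 to 0.48, edgeR adjusted p = 0.244), and its interaction term was 0.37 (95% interval 0.08 to 0.66, adjusted p = 0.465). hIAPP:hCAST 1 and 3 were above all hIAPP libraries and hIAPP:hCAST 2 was inside their range. Pfkp in hIAPP:hCAST against hCAST was 0.34 ± 0.0832 (SE, adjusted p = 0.0697), with all 3 libraries above all hCAST libraries. It passed with DESeq2 (0.34, adjusted p = 0.0142), with the acinar covariate (0.35 ± 0.0824, adjusted p = 0.0301), with voom (0.36, adjusted p = 0.0368) and without hCAST 3 (0.42, adjusted p = 0.0419). Pkm in the same comparison was -0.26 ± 0.0848 (adjusted p = 0.235) and passed with the acinar covariate (-0.29 ± 0.0668, adjusted p = 0.0289), with voom (-0.34, adjusted p = 0.0242) and without hIAPP:hCAST 3 (-0.34, adjusted p = 0.0402).

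**Figure D4:**
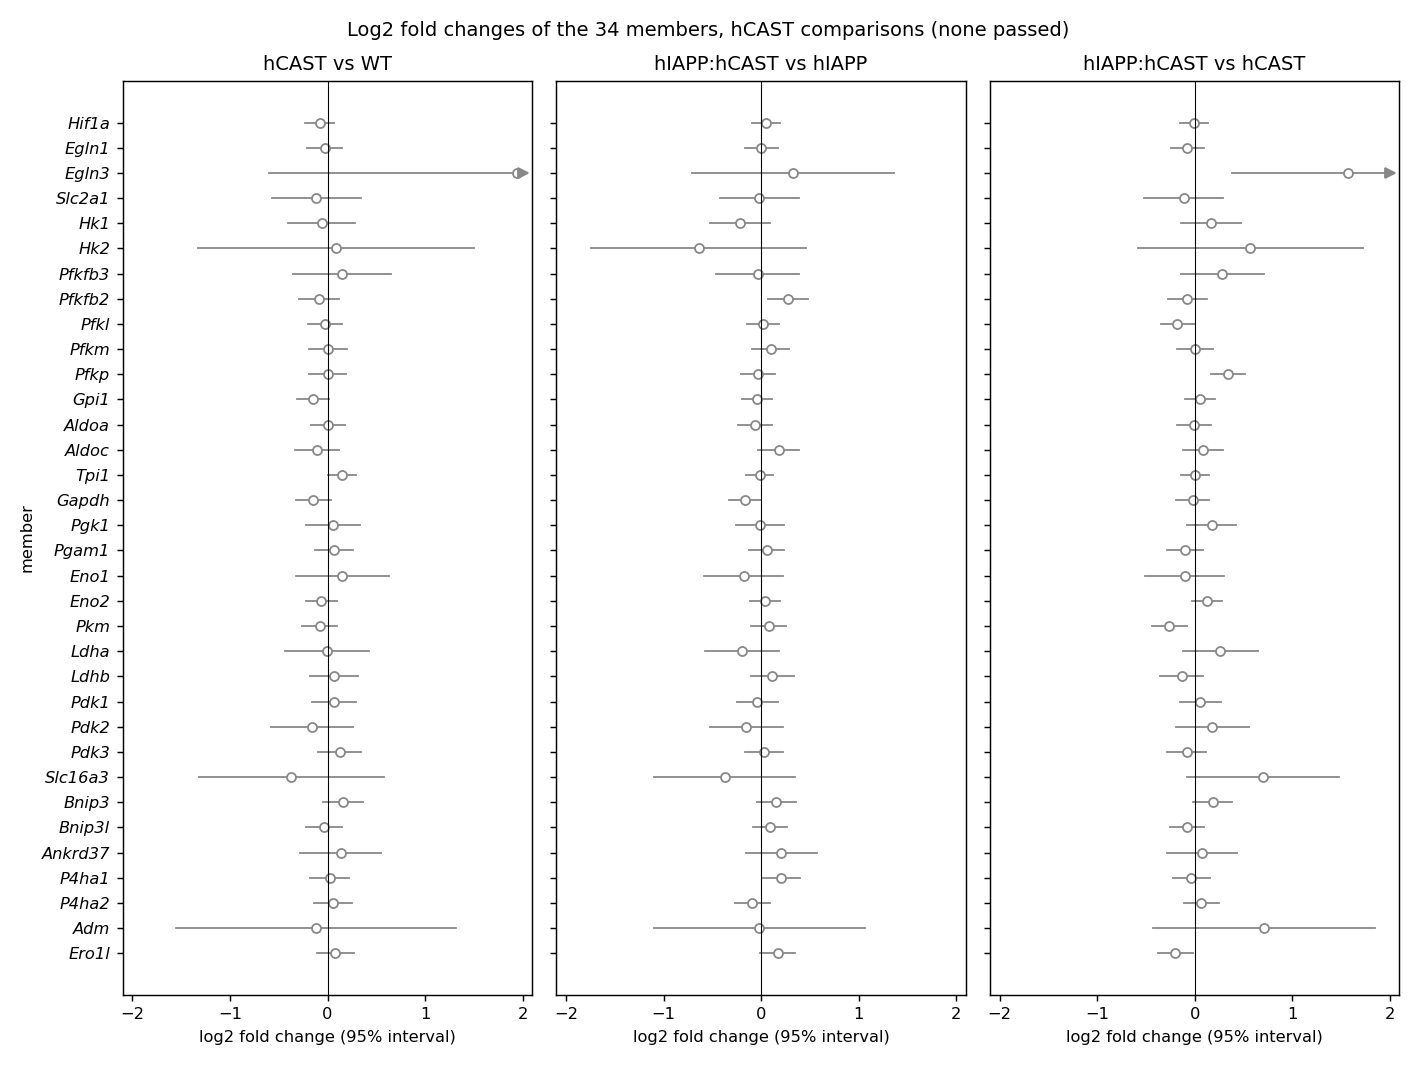
Log2 fold changes (horizontal axis) with 95% intervals for the 34 members (vertical axis) in hCAST against WT, hIAPP:hCAST against hIAPP and hIAPP:hCAST against hCAST, all open since none passed. Intervals are widest for Egln3, Hk2, Adm and Slc16a3, the members with the fewest counts, and an arrow marks an interval that runs past the axis.

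By overlap of libraries, which uses no model, 14 of the 34 members (41.2%) had hIAPP and WT libraries that did not overlap, against 33.1% of all tested genes; 7 were higher (all genes 17.9%) and 7 lower (all genes 15.2%). For rIAPP and WT it was 20 of 34 (58.8%), 9 higher and 11 lower, against 40.6% of all genes, 21.7% higher and 19% lower. For hIAPP and rIAPP it was 13 of 34 (38.2%), 7 higher and 6 lower, against 35.5%, 19.8% higher and 15.7% lower. In hCAST against WT, 2 members did not overlap, Gpi1 and Gapdh, both lower in hCAST, against 14.2% of all genes, 7.59% higher and 6.57% lower. In hIAPP:hCAST against hIAPP it was 1 member, Aldoc, higher, against 15.9% of all genes, 7.19% higher and 8.69% lower. In hIAPP:hCAST against hCAST it was 6, of which 4 were higher and 2 lower, against 13.3%, 6.64% higher and 6.61% lower.

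Outside the 34 members, the glucose carrier Slc2a2 and the phosphatase gene G6pc2 fell in both IAPP groups, though the G6pc2 call in hIAPP was lost under several settings given below. The 5 lists used here were drawn from textbook knowledge with earlier results of these data known, and Pfkfb4 and Slc2a3 stand in 2 of them. Beside their counts stand the shares of all genes, of which 6.27% rose and 5.59% fell in hIAPP, and 10.7% rose and 12.6% fell in rIAPP, against WT. Among 11 carriers of sugar and lactate, 1 rose and 1 fell in hIAPP against WT (median log2 fold change 0.23), and 3 rose and 3 fell in rIAPP against WT (median 0.28). Slc2a2, the glucose carrier of mouse beta cells, had 914, 733 and 993 CPM in WT 1, 2 and 3, against 831, 943 and 741 in hCAST 1, 2 and 3. Slc2a2 stood at 163, 111 and 248 CPM in rIAPP 1, 2 and 3, at 455, 320.3 and 329.8 in hIAPP 1, 2 and 3, and at 619, 417 and 457 in hIAPP:hCAST 1, 2 and 3. Its WT, hIAPP and rIAPP libraries did not overlap, with rIAPP lowest. Slc2a2 fell by 1.26 ± 0.258 on the log2 scale in hIAPP (adjusted p = 0.00946) and 2.34 ± 0.267 in rIAPP (adjusted p = 5.00e-05). The insulin-responsive carrier Slc2a4 rose in hIAPP by 1.44 ± 0.267 (adjusted p = 0.00325), which became 1.49, adjusted p = 0.0571 without the ribosomal-rich libraries. In rIAPP the fructose carrier Slc2a5 fell by 0.65 ± 0.0659 (adjusted p = 2.65e-06) and Bsg, the chaperone of lactate carriers, rose by 0.28 ± 0.0655 (adjusted p = 0.00535), the latter at 0.16, adjusted p = 0.260 without the ribosomal-rich libraries. Slc16a8, a lactate carrier, rose by 1.10 ± 0.261 (adjusted p = 0.00564; 0.0602 without WT 1).

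Among 21 tested genes of pyruvate entry and gluconeogenesis, 1 rose and 1 fell in hIAPP (all genes 6.27% and 5.59%), and 1 rose and 5 fell in rIAPP (all genes 10.7% and 12.6%). G6pc2, the islet glucose 6-phosphatase, which turns glucose 6-phosphate back into glucose, had 2683, 3016 and 2199.5 CPM in WT 1, 2 and 3, against 2159, 2874 and 2413 in hCAST 1, 2 and 3. G6pc2 stood at 771, 538 and 895 CPM in rIAPP 1, 2 and 3, at 1773, 1924 and 1452 in hIAPP 1, 2 and 3, and at 1791, 1814 and 1292 in hIAPP:hCAST 1, 2 and 3. All rIAPP libraries were below all hIAPP libraries, which were below all WT libraries. G6pc2 fell by 1.84 ± 0.193 in rIAPP (adjusted p = 6.24e-06) and by 0.62 ± 0.188 in hIAPP (adjusted p = 0.0445), the latter call being lost in 5 of 6 fits that left out 1 library, all but the one without WT 3. It was also lost without the ribosomal-rich libraries (-0.65, adjusted p = 0.127), against hCAST (-0.53, adjusted p = 0.105), with voom (-0.52, adjusted p = 0.0580) and with no filter on low counts (-0.61, adjusted p = 0.0590). Pcx, pyruvate carboxylase, through which beta cells replenish the citric acid cycle, averaged 146 ± 23.8 CPM over WT (SD, n = 3), 139 ± 9.58 CPM over hIAPP and 68.96 ± 13.9 CPM over rIAPP libraries. Pcx fell by 1.10 ± 0.140 in rIAPP (adjusted p = 5.02e-05). Pdp1, a phosphatase that activates pyruvate dehydrogenase, fell by 0.43 ± 0.120 in rIAPP (adjusted p = 0.0168; 0.0770 without WT 3 and 0.0762 without rIAPP 3), and was at -0.30, adjusted p = 0.280 without the ribosomal-rich libraries. Fbp2, a fructose bisphosphatase best known from muscle, rose by 1.58 ± 0.497 in hIAPP (adjusted p = 0.0488) and 1.72 ± 0.507 in rIAPP (adjusted p = 0.0212), the former being lost without any 1 of the 6 libraries and the latter without WT 3 or rIAPP 2. Without the ribosomal-rich libraries Fbp2 was at 1.18, adjusted p = 0.247 in rIAPP and had an adjusted p of 0.292 in hIAPP, and against hCAST at 0.75, adjusted p = 0.261 and 0.89, adjusted p = 0.117. Slc2a2 and G6pc2 are also in the list of 12 beta cell markers, of which 7 fell in hIAPP and 11 in rIAPP; how much of their fall goes with beta cell content was not tested.

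Of 16 genes tested and reported here in the rest of glycolysis, 1 rose in hIAPP (all genes 6.27%) and 1 rose in rIAPP (all genes 10.7%). Pgm1, a phosphoglucomutase, rose in rIAPP by 0.42 ± 0.116 (adjusted p = 0.0135), which was lost without WT 3, rIAPP 2 or WT 1, and also with the ribosomal-rich libraries left out (0.32, adjusted p = 0.144). Hk3, a hexokinase of myeloid cells, rose in hIAPP from 0.129, 0.438 and 0 CPM in WT 1, 2 and 3 to 0.737, 0.840 and 0.462 (log2 2.57 ± 0.735, adjusted p = 0.0334), in the group where 12 of 15 macrophage markers were higher. Its call was lost without WT 1, WT 3, hIAPP 1 or hIAPP 2 (0.0695 to 0.141 adjusted), without the ribosomal-rich libraries (2.36, adjusted p = 0.106) and against hCAST (1.55, adjusted p = 0.0754).

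Among 16 regulators of the HIF pathway, 3 fell in hIAPP (all genes 5.59%), and 4 fell and 1 rose in rIAPP (all genes 12.6% and 10.7%). Cited2, which competes with HIF-1 alpha for the coactivators p300 and CBP, had 22.9, 48.2 and 31.7 CPM in WT 1, 2 and 3, 22.4, 26.04 and 24.6 in hCAST, against 12.96, 9.47 and 11.8 CPM for the rIAPP and 18.7, 17.8 and 20.3 CPM for the hIAPP libraries. It fell in rIAPP by 1.43 ± 0.190 (adjusted p = 7.40e-05) and in hIAPP by 0.72 ± 0.183 (adjusted p = 0.0215), the latter being lost without WT 3, hIAPP 1 or hIAPP 2 (0.0572 to 0.0737 adjusted). Cited2 in hIAPP was at -0.28, adjusted p = 0.253 without the ribosomal-rich libraries, -0.36, adjusted p = 0.232 against hCAST, -0.57, adjusted p = 0.0613 with the acinar covariate and -0.70, adjusted p = 0.0740 in a fit of WT and hIAPP alone. WT 2, the library with the fewest counts, was the highest for Cited2. Epas1, which encodes HIF-2 alpha and is abundant in endothelium, rose in rIAPP by 0.64 ± 0.124 (adjusted p = 0.00128), in the group where 8 of 11 endothelial markers rose. The coactivator genes Crebbp and Ep300 fell in hIAPP by 0.34 ± 0.0977 and 0.49 ± 0.143 (adjusted p = 0.0328 and 0.0353), and Crebbp and Hif1an, the asparaginyl hydroxylase of HIF, fell in rIAPP by 0.31 ± 0.0984 and 0.27 ± 0.0887 (adjusted p = 0.0316 and 0.0366). These 4 calls held in 1 to 3 of 6 fits that left out 1 library and all 4 were lost against hCAST in place of WT. There Crebbp in rIAPP was at 0.026, adjusted p = 0.889, Hif1an in rIAPP at -0.12, adjusted p = 0.359, Crebbp in hIAPP at -0.00819, adjusted p = 0.976, and Ep300 in hIAPP at -0.0427, adjusted p = 0.893. With the ribosomal-rich libraries left out, all 4 were lost as well. Crebbp was then at -0.20, adjusted p = 0.335 in rIAPP and -0.27, adjusted p = 0.231 in hIAPP, Hif1an at -0.35, adjusted p = 0.0585 in rIAPP and Ep300 at -0.51, adjusted p = 0.134 in hIAPP.

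Among 40 tested HIF targets outside the 34 members, 8 rose in hIAPP (all genes 6.27%, median log2 fold change of the list 0.15), and 7 rose and 5 fell in rIAPP (all genes 10.7% and 12.6%, median of the list 0.03). Pgf, placental growth factor, had 6.15, 7.005 and 5.09 CPM in WT 1, 2 and 3, 6.08, 7.23 and 6.51 in hCAST, against 7.27, 7.84 and 8.86 CPM with rodent IAPP, 8.99, 9.82 and 10.8 CPM in hIAPP and 11.3, 9.81 and 9.22 in hIAPP:hCAST. All hIAPP and hIAPP:hCAST libraries were above all WT and hCAST libraries. Pgf rose by 0.75 ± 0.139 in hIAPP against WT (adjusted p = 0.00329) and by 0.61 ± 0.120 in hIAPP:hCAST against hCAST (adjusted p = 0.0236), the latter being lost without any 1 of the hCAST libraries or hIAPP:hCAST 1 (adjusted p up to 0.146). Without the ribosomal-rich libraries these were 0.67, adjusted p = 0.0719 and 0.61, adjusted p = 0.0533. In a fit of hCAST and hIAPP:hCAST alone the latter was 0.62, adjusted p = 0.154. Lox, the matrix cross-linker lysyl oxidase, rose by 2.78 ± 0.583 in hIAPP (adjusted p = 0.00883; 0.0987 without WT 1, 0.0716 with the ribosomal-rich libraries left out), in a group where 9 of 12 stellate and matrix markers rose. Stc2, a secreted glycoprotein, rose by 0.68 ± 0.174 in hIAPP (adjusted p = 0.0192; 0.109 without WT 3 and 0.0826 without hIAPP 2). It was at 0.46, adjusted p = 0.289 without the ribosomal-rich libraries and 0.50, adjusted p = 0.0581 against hCAST. Stc2 was 1.23 ± 0.163 higher in hIAPP than in rIAPP (adjusted p = 6.51e-05). Angptl4, an inhibitor of lipoprotein lipase, rose by 1.26 ± 0.315 in hIAPP (adjusted p = 0.0237) and held in 2 of 6 fits that left out 1 library, those without WT 2 or hIAPP 2. It was at 0.73, adjusted p = 0.133 against hCAST and 1.27, adjusted p = 0.209 without the ribosomal-rich libraries. In rIAPP, Ppp1r3c, which targets a phosphatase to glycogen, had 16.3, 16.9 and 11.3 CPM, with 3.55, 2.63 and 5.47 CPM for the WT and 3.70, 3.79 and 4.73 CPM for the hIAPP libraries, and rose by 1.84 ± 0.266 (adjusted p = 0.000132). Gbe1, the glycogen branching enzyme, rose by 0.50 ± 0.0790 (adjusted p = 0.000220), the cyclin gene Ccng2 fell by 0.64 ± 0.0981 (adjusted p = 0.000168) and the histone demethylase gene Kdm3a fell by 0.42 ± 0.0757 (adjusted p = 0.000607). The part that macrophages, endothelium and matrix cells have in these values was not tested.

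Between the IAPP forms, 8 of the 40 targets were higher and 4 lower in hIAPP, and 5 of 21 genes of pyruvate entry and gluconeogenesis were higher, where 7.71% of all genes were higher and 5.28% lower. Pcx was 1.01 ± 0.137 higher (adjusted p = 0.000138), G6pc2 1.22 ± 0.190 higher (adjusted p = 0.000376) and Ppp1r3c lower, with a log2 fold change of -1.85 ± 0.231 (adjusted p = 4.93e-05), in hIAPP than in rIAPP. The other named differences in hIAPP against rIAPP were -0.62 ± 0.0730 for Gbe1 and 0.54 ± 0.0906 for Ccng2, 0.55 ± 0.108 for the glycerol phosphate dehydrogenase gene Gpd1, 0.53 ± 0.117 for Mpc1 of the mitochondrial pyruvate carrier, 0.52 ± 0.0649 for Slc2a5, -0.37 ± 0.0647 for Bsg, 1.22 ± 0.255 for the sugar carrier Slc2a10 and 0.83 ± 0.184 for the glucose 6-phosphate carrier Slc37a4, all past the threshold with and without each library. Without all ribosomal-rich libraries Slc37a4 was at 0.77, adjusted p = 0.0694. Cited2 was 0.71 ± 0.176 higher (adjusted p = 0.0139; 0.0632 without rIAPP 2), and Epas1 was lower at -0.37 ± 0.116 (adjusted p = 0.0436), a call lost without any 1 of the 6 libraries and without the ribosomal-rich libraries (-0.40, adjusted p = 0.0757).

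In edgeR's test of hCAST against WT, of hIAPP:hCAST against hIAPP and of the interaction, 0 genes of the 5 lists passed. Of the 44 calls named from these lists over all comparisons, 26 passed in every fit that left out 1 library and 18 did not.

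**Figure D5:**
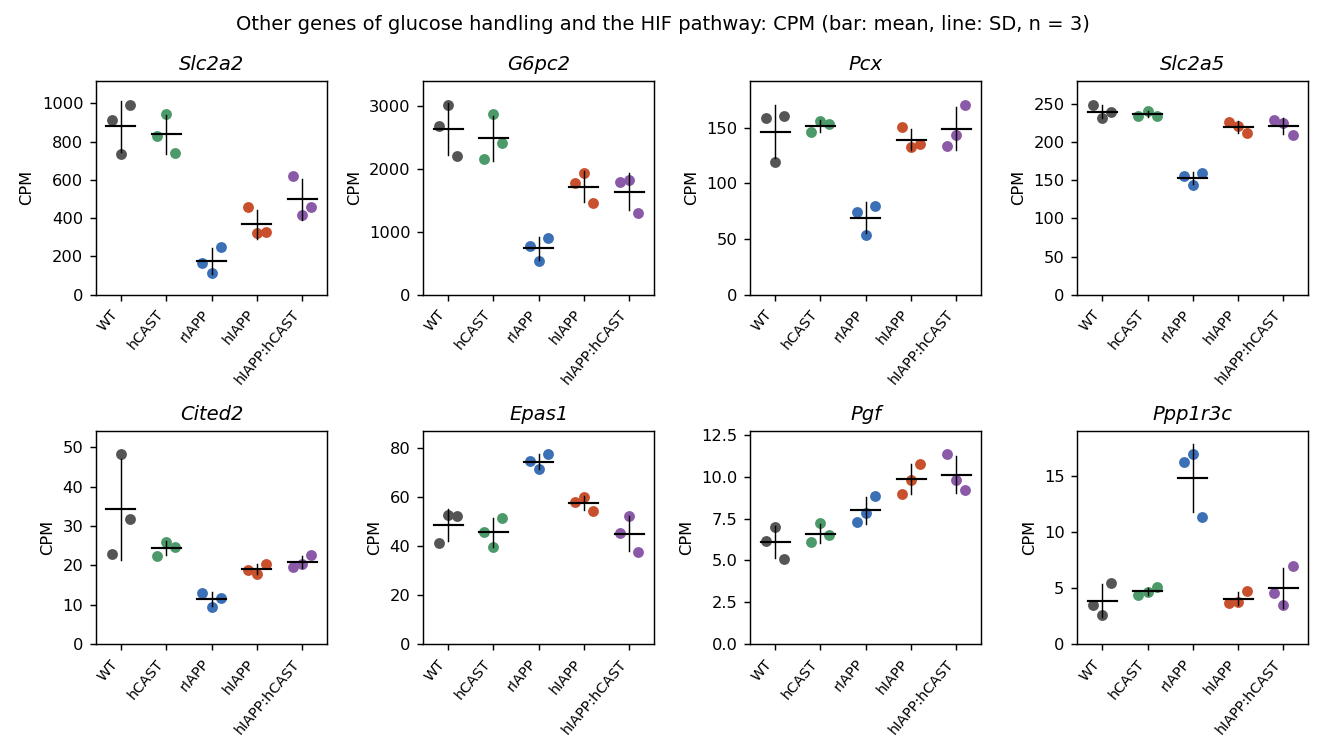
CPM (vertical axis, from 0) of 8 genes outside the 34 members by group (horizontal axis), with a point per library, a bar at the mean and a line for the SD (n = 3). Slc2a2, G6pc2 and Pcx are lowest in rIAPP, and Ppp1r3c in rIAPP is above all other libraries.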

How the data were processed

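RNA was measured by RNA-seq in 15 islet libraries. Per the submitters' processing notes, STAR and HTSeq were used with GRCm38 (mm10); roles, versions, annotation, strand setting and handling of reads with several matches are not given in the sources used here. The authors deposited raw counts per gene and a table of FPKM; the deposited FPKM served only to recover gene lengths. Counts were tested with edgeR 4.0.16 in R 4.3.3 (trimmed-mean scaling, filterByExpr by group, robust quasi-likelihood fit with all 15 libraries and 1 coefficient per group, Benjamini-Hochberg adjustment over 15460 entries, threshold 0.05). Intervals at 95% use the t quantile and the SE worked back from the F statistic. They are approximate, most of all for the smallest changes. The test was also run on simulated counts, and the outcome of that run is not given here. Members and gene lists were chosen with earlier results of these data known. Members called in any of 7 comparisons are given by library, and up to 4 called genes with the smallest p per list. Alternatives were DESeq2 1.42.0, limma 3.58.1 voom, other scaling, no filter, only the compared groups, the ribosomal-rich entries or libraries removed, an acinar covariate, hCAST in place of WT, and each library left out; the same alternatives for genes outside the members were added after seeing the data. The smallest exact permutation p for 3 against 3 is 0.1, so no such test is given. A result on 1 gene of the pathway lists is not reported here.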

Additional observations from a re-analysis of the deposited data

How the results depend on the processing

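Of 18 calls of single members in the 3 IAPP comparisons, 9 passed under every alternative and in every fit that left out 1 library, 9 were lost under at least 1, and 0 changed direction; 239 of 265 such fits kept their call. The number of members called in hIAPP against WT was 4 and became 0 without the ribosomal-rich libraries (all genes 2.39%), where WT keeps 1 library; leaving out single libraries gave 2 to 4. In rIAPP against WT it was 9, with 5 without the ribosomal-rich libraries (all genes 9.53%) and 14 with the acinar covariate (all genes 21.8%), and 8 to 10 when single libraries were left out. In hIAPP against rIAPP it was 5, with 8 by voom with sample weights (all genes 22.5%), and 4 to 6 without single libraries. In hIAPP:hCAST against hCAST it was 0, with 1 by DESeq2 (all genes 1.77%), 2 with the acinar covariate (2.21%) and 2 by voom (1.95%), and 0 to 2 without single libraries. It stayed at 0 in hCAST against WT, in hIAPP:hCAST against hIAPP and in the interaction under all alternatives run. Pfkl, Pfkm, Aldoa, Slc2a1, Hk2, Ldha, Bnip3l, Ankrd37 and P4ha1, which changed in no comparison, each passed in at least 1 comparison under at least 1 alternative. Except where the smaller set of libraries gives it, the cause of these moves was not tested. Of 44 calls of genes outside the members, whose alternatives were chosen after seeing the data, 22 passed throughout and 1 changed direction: Crebbp in rIAPP, at 0.026 against hCAST in place of WT. Depth limits the WT group and the members Egln3, Hk2, Adm and Slc16a3. No paired analysis was possible because the labels' library numbers are not shared between groups.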
